A study of Mus musculus with 2 samples.

Results

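Otx1, Otx2, Emx1, Emx2, Lhx2, Nr2f1, Nr2f2, Sp8 and Sp9 are 9 of the 21911 protein-coding genes of mouse annotated by GENCODE release M21, and they encode transcription factors that pattern the forebrain and the frontonasal region of the head. They were chosen by name, with the chromatin of the samples already seen, and all 9 could be examined. Each gene was described by the DNase I hypersensitive sites in its gene body and in the 200 kb on each side. The tissue was embryonic facial prominence from healthy B6NCrl mouse embryos at embryonic day 14.5, with male and female embryos pooled. It was profiled by DNase-seq, in which DNase I cuts DNA that is not covered by nucleosomes and the cut ends are sequenced. There was 1 group of 2 biological replicates from separate tissue samples, with no treatment and no control, and both carried the same donor record. The labels do not give how many embryos were pooled.

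Otx and Emx proteins are homeodomain factors named after fly head gap genes, and together they subdivide the anterior brain. Lhx2 is a LIM-homeodomain factor of the cortex, eye and olfactory epithelium, Nr2f1 and Nr2f2 are orphan nuclear receptors also called COUP-TFs, and Sp8 and Sp9 are zinc finger factors of the buttonhead type that act in limb ectoderm, the olfactory region and the ventral forebrain. Several of these genes are used both in the brain and in the facial tissue that lies next to it. Open sites at them therefore do not by themselves show which of these tissues a dissected facial sample held.

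Peaks were narrow regions of fixed width, 150 bp, and hotspots were broader regions of raised cutting. A peak was called shared where it overlapped a peak of the other replicate by at least 1 bp. It was called distal where it lay over 1 kb from every start site of the GENCODE basic transcripts, a subset of the annotated transcripts. The following mm10 sequences are the plus strand of the GRCm38 genome of RefSeq, chosen because the results turn on them. They are an Otx1 promoter peak, the top shared distal site of 4 genes, the strongest distal site found in replicate 2 alone within the densest cluster of such sites at 4 genes, leaving exons out, and sites found in replicate 1 alone at Nr2f1, Sp8 and Lhx2. Capitals mark matches, on either strand, to any of 7 short motifs that are spelled out with their frequencies further on.
Otx1 promoter, both replicates, chr11:22001856-22002005: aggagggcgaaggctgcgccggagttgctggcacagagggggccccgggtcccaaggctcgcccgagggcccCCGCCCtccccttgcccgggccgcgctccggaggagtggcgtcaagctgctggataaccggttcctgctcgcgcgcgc
Otx1, replicate 2 alone, chr11:21994136-21994285: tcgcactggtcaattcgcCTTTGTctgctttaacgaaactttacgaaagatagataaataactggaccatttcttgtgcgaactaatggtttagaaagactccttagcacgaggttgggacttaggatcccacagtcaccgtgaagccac
Otx2 distal, both replicates, chr14:48709456-48709645: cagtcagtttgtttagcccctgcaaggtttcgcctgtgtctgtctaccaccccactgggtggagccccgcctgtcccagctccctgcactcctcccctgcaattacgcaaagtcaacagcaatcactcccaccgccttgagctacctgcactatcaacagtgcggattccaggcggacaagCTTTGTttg
Emx2 distal, both replicates, chr19:59454356-59454505: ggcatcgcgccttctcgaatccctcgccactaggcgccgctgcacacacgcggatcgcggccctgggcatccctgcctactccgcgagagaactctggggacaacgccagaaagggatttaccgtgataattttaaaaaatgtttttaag
Emx2, replicate 2 alone, chr19:59469396-59469545: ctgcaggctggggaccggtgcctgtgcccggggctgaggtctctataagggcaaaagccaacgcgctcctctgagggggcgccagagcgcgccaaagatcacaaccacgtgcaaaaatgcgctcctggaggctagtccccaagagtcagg
Nr2f2 distal, both replicates, chr7:70361736-70361905: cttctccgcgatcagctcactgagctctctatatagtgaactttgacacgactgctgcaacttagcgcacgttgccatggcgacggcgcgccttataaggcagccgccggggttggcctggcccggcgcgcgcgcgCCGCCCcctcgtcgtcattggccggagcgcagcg
Nr2f2, replicate 2 alone, chr7:70325556-70325705: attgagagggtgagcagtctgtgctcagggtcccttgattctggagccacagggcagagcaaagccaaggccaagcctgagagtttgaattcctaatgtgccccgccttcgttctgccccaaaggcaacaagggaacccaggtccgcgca
Sp9 distal, both replicates, chr2:73278596-73278745: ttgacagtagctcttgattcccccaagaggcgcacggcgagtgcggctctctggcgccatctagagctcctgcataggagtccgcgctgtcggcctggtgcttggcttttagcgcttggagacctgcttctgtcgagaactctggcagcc
Sp9, replicate 2 alone, chr2:73277856-73278005: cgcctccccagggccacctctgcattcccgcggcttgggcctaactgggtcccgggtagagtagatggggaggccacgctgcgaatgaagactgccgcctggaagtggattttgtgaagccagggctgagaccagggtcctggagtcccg
Nr2f1, replicate 1 alone, chr13:78175936-78176085: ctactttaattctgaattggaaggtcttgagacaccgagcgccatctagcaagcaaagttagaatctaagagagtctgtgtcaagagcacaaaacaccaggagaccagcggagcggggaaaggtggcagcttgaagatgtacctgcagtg
Sp8 promoter, replicate 1 alone, chr12:118846696-118846845: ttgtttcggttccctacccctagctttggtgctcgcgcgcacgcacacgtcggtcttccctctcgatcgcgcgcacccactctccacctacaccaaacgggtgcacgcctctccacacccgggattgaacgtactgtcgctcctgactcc
Lhx2 upstream promoter, replicate 1 alone, chr2:38339096-38339245: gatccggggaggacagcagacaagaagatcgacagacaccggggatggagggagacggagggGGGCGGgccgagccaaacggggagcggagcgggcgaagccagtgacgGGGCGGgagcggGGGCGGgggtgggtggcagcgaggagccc

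The replicates differed in list length before any gene was considered. Replicate 2 had 217980 peaks and replicate 1 had 304233, of which 172485 and 254931 were distal. Hotspots covered 2.19% of the main chromosomes in replicate 2 and 3.18% in replicate 1. Of the distal peaks, 83.6% of those in replicate 2 and 55.9% of those in replicate 1 were shared. The files hold no read counts, which leaves library depth unknown, and absence of a peak does not show that a region was closed. Sequencing instruments were listed for replicate 1 alone, so a batch and a replicate cannot be told apart. Promoters of markers of the labelled tissue were in both lists, at 25 of 26 facial mesenchyme factors, 10 of 12 jaw factors of the first arch and 15 of 15 genes of surface and oral epithelium, against 67.4% of all protein-coding genes. The same held at 27 of 36 forebrain and neural progenitor factors, so a shared promoter peak does not mark the facial tissue by itself.

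The question for the 9 genes was whether the replicates had the same sites around them. With 1 group of 2 libraries there is no replicate of the difference between libraries, so no test was made and every contrast here is a description of these libraries. For each gene the ratio of distal peaks in replicate 2 over replicate 1 was taken on the log2 scale with 0.5 added to each count. The same ratio over all distal peaks, -0.56, was subtracted, so that list length drops out. The result is called the replicate 2 excess: 0 means that the gene followed the whole list. Over the 19350 protein-coding genes with at least 20 distal peaks in their windows, both replicates summed, it had a median of 0.10 with an SD of 0.29 across genes.

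Distal sites around Otx1, Emx2, Nr2f2 and Sp9 were more numerous in replicate 2 than the list lengths account for, while the excess of the other 5 genes, -0.18 to 0.09, lay between the 5th and 95th percentiles of all genes, -0.39 and 0.53. With other settings 2 of these 5 passed 1.5-fold towards replicate 1, Otx2 within 100 kb at -0.75 and Nr2f1 among peaks at or above the median score at -0.77. These 4 genes passed 1.5-fold towards replicate 2, against 3.29% of the 19350 genes, and 0 of the 9 passed 1.5-fold towards replicate 1, against 1.69%. The genes were chosen with this contrast in view, so nothing is read from that count. In bulk tissue, fewer cells with an open site and less cutting per cell cannot be told apart. The median excess of the 9 genes was 0.09, beside 0.10 for all genes, but it stands between 2 groups of values and depended on the setting. It was 0.29 within 100 kb, 0.56 within 50 kb, 0.29 for sequence nearest to a start site of the gene and 0.34 for sites over 5 kb from every start site. In the paralog pairs Otx1 and Otx2, Emx1 and Emx2, Nr2f1 and Nr2f2, and Sp8 and Sp9, 1 gene of each pair was past 1.5-fold and the other was not. That split also depended on the setting. Among peaks at or above the median score Otx1 was at 0.18, Nr2f2 at 0.49 and Sp9 at 0.18, all below 1.5-fold. Emx2 was at 0.34, also below, for sites over 5 kb from every start site. Nothing is read from the split, for the same reason as for the count.

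**Figure D1:**
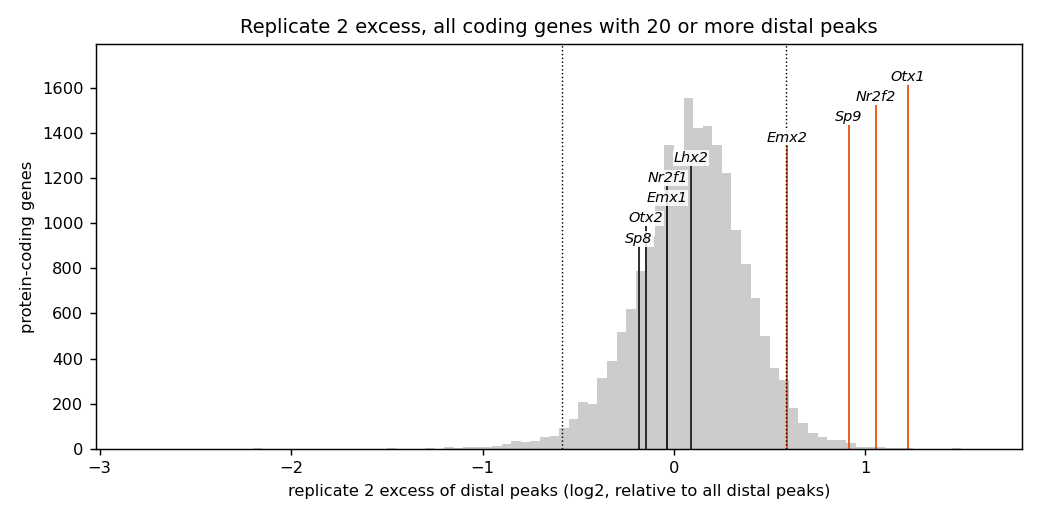
Replicate 2 excess of distal peaks (log2) for the 9 genes, drawn against its distribution over 19350 protein-coding genes. Otx1, Nr2f2, Sp9 and Emx2 lie to the right of the 1.5-fold line, Emx2 at 1.51-fold, and the other 5 genes lie between -0.18 and 0.09.

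Promoters of 7 of the 9 genes held a peak in both replicates within 500 bp of a start site, against 67.4% of all protein-coding genes. The other 2 genes, Nr2f1 and Sp8, had promoter peaks in replicate 1 and none in replicate 2, a state of 3.17% of protein-coding genes. The opposite state, found at 0.917% of genes, was found at none of the 9. Both exceptions had a peak in both lists slightly farther out. At Sp8 it lay 747 bp from the start site, chr12:118847076-118847245, with scores of 80 in replicate 2 and 97 in replicate 1, and at Nr2f1 it lay 552 bp away, chr13:78199016-78199205, with scores of 66 in replicate 2 and 70 in replicate 1. With a window of 1000 bp the promoters of all 9 genes were shared. With the start sites of every annotated transcript, 8 genes had a shared promoter peak. Both shared peaks named here overlap a RefSeq promoter window of their gene, chr12:118846983-118847282 at Sp8 and chr13:78198824-78199123 at Nr2f1. The 2 exceptions thus depend on the start sites and the window used. They do not show that replicate 2 lacked an open promoter. The score is the deposited value of a peak, a whole number that ranks peaks within a list. It was lower across the replicate 2 list, with a median of 37 against 50 in replicate 1.

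Otx1, a homeodomain factor of the dorsal telencephalon and inner ear, spans chr11:21994764-22002897 on the minus strand. Its promoter held 2 peaks in each replicate, with scores of 95 and 76 in replicate 2 and of 106 and 105 in replicate 1. Both promoter sites were thus among the stronger peaks of both lists. The window held 54 distal peaks in replicate 2 and 34 in replicate 1. That is a replicate 2 excess of 1.22, which 6 of the 19350 genes exceeded. Peaks of replicate 2 made up 61.4% of the distal peaks of both lists, with an exact Clopper-Pearson 95% interval of 50.4% to 71.6%. The share that the list lengths alone give is 40.4%, the level to set these shares against. This interval and those below cover counting error only, and neighbouring peaks are not independent. The genes were chosen with this contrast in view, so no interval is read as a test against the 40.4%.

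Most of the replicate 1 peaks at Otx1 were also in replicate 2, while the reverse was not so: 27 of 54 peaks of replicate 2 and 27 of 34 of replicate 1 were shared. Of the sites found in replicate 2 alone, 15 lay within 13.95 kb over the gene, chr11:21992876-22006825, among 8 shared sites and no site of replicate 1 alone. Hotspots covered 73.9% of that stretch in replicate 2 and 32.0% in replicate 1. Hotspots thus lay over most of the gene in replicate 2 and over less of it in replicate 1. Added sites were of moderate score: the strongest distal one, chr11:21994136-21994285, had a score of 44 and lay 2790 bp from the nearest peak of replicate 1. When each list was limited to peaks at or above its median score, the excess at Otx1 was 0.18 and no longer past 1.5-fold.

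Otx2, a homeodomain factor needed for the forebrain, the midbrain and much of the head, spans chr14:48657677-48673819 on the minus strand. It stood apart from its paralog. Shared peaks lay at 2 of its start sites, with scores of 59 and 62 in replicate 2 and of 69 and 78 in replicate 1, and replicate 1 had a further promoter peak with a score of 67. The window held 31 distal peaks in replicate 2 and 51 in replicate 1, an excess of -0.15. Of the 31 peaks of replicate 2, 93.5% were shared, so replicate 2 added 2 peaks to the list of replicate 1. The strongest distal site of replicate 1 alone, chr14:48641496-48641645, scored 94 and lay 15870 bp from the nearest peak of replicate 2. It overlaps an exon of the annotated transcript Gm35766. The top shared distal site, printed above, lies in an intron of the antisense transcript Otx2os1, at -35.7 kb from the gene's 5′ end, upstream of it, and scored 61 in replicate 2 and 80 in replicate 1. Within 100 kb of the gene the excess was -0.75, past 1.5-fold towards replicate 1.

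**Figure D2:**
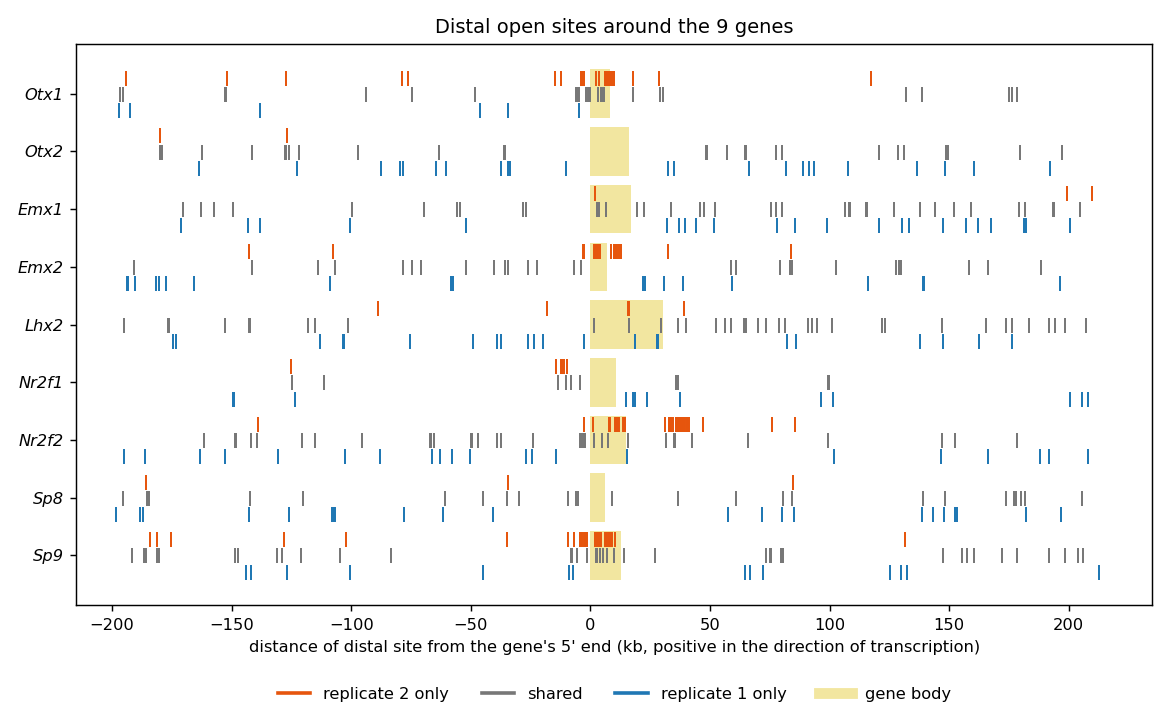
Distal sites along the 200 kb on each side of each gene, by distance (kb) from the gene's 5′ end, with sites of replicate 2 alone in the top lane, shared sites in the middle lane and sites of replicate 1 alone in the bottom lane. Sites of replicate 2 alone crowd on or near the gene bodies (yellow) of Otx1, Emx2, Nr2f2 and Sp9, where 92 of 110 lie within 50 kb.

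Emx1, a homeodomain factor of the cortical primordium, spans chr6:85187438-85204462 on the plus strand. Its start site held a shared peak of middling score, 44 in replicate 2 and 58 in replicate 1, and a weak promoter peak of replicate 2 alone scored 26. The window had 42 distal peaks in replicate 2 and 64 in replicate 1, an excess of -0.04. Of those in replicate 2, 92.9% were shared. Much of this window belongs to neighbours: 16 shared sites and 11 of replicate 1 alone lay in the body of Sfxn5, a mitochondrial carrier gene, and the top shared site lay in Rab11fip5, a vesicle trafficking gene. At its shared sites Emx1 differed from the other 8 genes in rank. The percentile of a shared site within its list was higher in replicate 2 by a median of 2.10 points, and 22 of 38 shared sites ranked higher there. At the other 8 genes the median difference ran from -11.6 to -4.08 points, and over all shared distal sites of the genome it was -9.19.

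Emx2, a homeodomain factor of the cortex, olfactory bulb and urogenital system, spans chr19:59458372-59465357 on the plus strand. Its shared promoter peak scored 105 in replicate 2 and 135 in replicate 1, the highest promoter score of the 9 genes in replicate 1, and replicate 2 had a second promoter peak with a score of 53. The strongest shared distal site lay upstream, at -3.94 kb from the start, in an intron of the antisense transcript Emx2os, with scores of 103 in replicate 2 and 101 in replicate 1. The window held 50 distal peaks in replicate 2 and 49 in replicate 1, where the list lengths alone would give fewer in replicate 2. The excess of 0.59 was 1.51-fold and lay just inside the threshold of 0.58, with Lhx2 at 0.09 the next below it, and the interval of the replicate 2 share, 40.3% to 60.7%, reached the 40.4% of the list lengths. Counting sites over 5 kb from every start site brought it to 0.34, below the threshold.

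The replicates differed most in a stretch over and around the Emx2 gene body. Between site centres at -3.24 and 12.8 kb from the start, chr19:59455056-59471205, replicate 2 had 16 distal sites that replicate 1 lacked, with no shared distal site and none of replicate 1 alone. Of the 20 distal sites of replicate 2 alone in the window, 6 lay inside the gene body and 11 outside it within 50 kb. Counting promoter peaks too, the stretch held 22 peaks in replicate 2 and 2 in replicate 1, and hotspots covered 32.0% of it in replicate 2 and 4.65% in replicate 1. Inside this stretch, picked for its sites of replicate 2 alone, replicate 1 thus had few peaks, and replicate 2 had peaks over and beside the gene body. Replicate 1 was not bare farther out. The strong shared site at -3.94 kb lies just upstream of the stretch. Within 50 kb outside the gene body there were 7 shared distal sites and 4 of replicate 1 alone. The sites added here were stronger than those at Otx1: the printed site of this stretch, chr19:59469396-59469545, scored 65 in replicate 2. Emx2 was the 1 gene of the 4 that stayed past 1.5-fold among peaks at or above the median score, with an excess of 0.83. The strongest distal peak of replicate 2 alone in the window, chr19:59542256-59542405, scored 80, but it lay 50 bp from a peak of replicate 1 and inside a hotspot of replicate 1.

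Lhx2, which acts in the cortex, the eye field and olfactory progenitors, spans chr2:38339281-38369733 on the plus strand. It has 2 annotated start sites that differed in state. At the downstream start both replicates had peaks with scores of 111 and 50 in replicate 2 and of 131 and 56 in replicate 1. At the upstream start only replicate 1 had peaks, with scores of 53 and 46. The printed upstream sequence held 3 matches to GGGCGG, the GC box bound by Sp factors. The window held 43 distal peaks in replicate 2 and 60 in replicate 1, an excess of 0.09, and 88.4% of those in replicate 2 were shared. Lhx2 was thus close to the median of all genes, with 5 distal peaks added in replicate 2 and 22 in replicate 1.

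**Figure D3:**
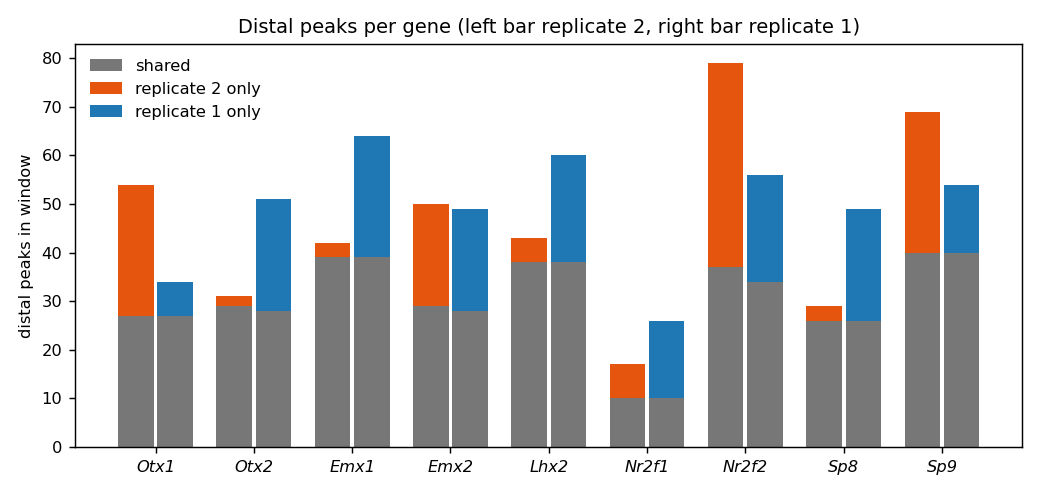
Distal peaks in the window of each gene, replicate 2 in the left bar and replicate 1 in the right bar, split into shared peaks and peaks of that replicate alone. Peaks of replicate 2 alone number 21 to 42 at Otx1, Emx2, Nr2f2 and Sp9 and 2 to 7 at the other 5 genes.

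Nr2f1, an orphan nuclear receptor of the cortex, eye and neural crest, spans chr13:78188973-78199757 on the minus strand. Its window had the fewest distal peaks of the 9, with 17 in replicate 2 and 26 in replicate 1, and an excess of -0.04. Shared peaks were a smaller share here than at the other genes outside the 4 that passed 1.5-fold, at 58.8% of replicate 2 and 38.5% of replicate 1. The replicates parted by side of the gene. Replicate 1 had 6 sites of its own within 9.09 kb, 14.8 to 23.7 kb downstream of the start, with hotspots over 0% of the stretch in replicate 2 and 18.6% in replicate 1. Replicate 2 had 5 of its own within 4.43 kb, upstream at -14.2 to -9.91 kb, with hotspots over 48.8% of the stretch in replicate 2 and 13.6% in replicate 1. The printed Nr2f1 site belongs to the downstream cluster, scored 82 in replicate 1 and lay 4430 bp from the nearest peak of replicate 2. Of the 9 genes, Nr2f1 was the one where hotspot coverage of the gene body with 5 kb on each side was furthest below in replicate 2, at 5.91% against 20.5% in replicate 1.

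Nr2f2, an orphan nuclear receptor of mesenchyme, veins and the ventral forebrain, spans chr7:70351944-70366735 on the minus strand and is the only protein-coding gene in its window. Its first start held a shared peak, with scores of 60 in replicate 2 and 97 in replicate 1. Its second start held 3 peaks in replicate 2, with scores of 38, 46 and 36, and none in replicate 1. The window held 79 distal peaks in replicate 2 and 56 in replicate 1, the most of the 9 genes in replicate 2. The excess of 1.06 was exceeded by 18 genes, and the replicate 2 share was 58.5%, with an interval of 49.7% to 66.9%. The strongest shared distal site, printed above, lies in an intron of Nr2f2, 1143 bp from the second start. It scored 125 in replicate 2 and 137 in replicate 1, so a strong internal site was common to both. Replicate 1 was thus not without a peak near the second start.

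The densest cluster of replicate 2 sites at any of the 9 genes was found beyond the 3′ end of Nr2f2. In 16.0 kb, chr7:70319616-70335625, 31.2 to 47.0 kb downstream of the gene's 5′ end, replicate 2 had 22 distal sites of its own beside 4 shared sites. Hotspots covered 49.2% of it in replicate 2 and 5.81% in replicate 1, and peaks numbered 30 in replicate 2 and 4 in replicate 1. Part of the stretch lies in introns of the annotated transcript Gm29683, where the printed site scored 35 in replicate 2. In any 20 kb of their windows the median gene had 2 such sites and the 95th percentile was 5, and 7 of 19350 genes had 22 or more, Nr2f2 among them. Among peaks at or above the median score, the excess at Nr2f2 was 0.49, below 1.5-fold.

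Sp8, a zinc finger factor of the frontonasal ectoderm, the limb ridge and the olfactory bulb, spans chr12:118846329-118852576 on the plus strand. It had the lowest excess of the 9, -0.18, from 29 distal peaks in replicate 2 and 49 in replicate 1. Of those in replicate 2, 89.7% were shared. The promoter peak of replicate 1, printed above, scored 68. The strongest shared distal site, 8.94 kb downstream of the start at chr12:118855196-118855345, scored 93 in replicate 2 and 115 in replicate 1. Around the gene itself little differed: hotspots covered 3.64% of the gene body with 5 kb on each side in replicate 2 and 4.38% in replicate 1. Most of the sites of replicate 1 alone lay far off, with 10 of 22 at 100 to 150 kb and 5 at 150 to 200 kb from the gene body.

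Sp9, a zinc finger factor of limb ectoderm and of striatal and interneuron precursors, spans chr2:73271925-73284706 on the plus strand. The start site peak was shared, with scores of 95 in replicate 2 and 111 in replicate 1, and replicate 2 had 2 weaker promoter peaks of its own, with scores of 30 and 27. The window held 69 distal peaks in replicate 2 and 54 in replicate 1. The excess of 0.91 was exceeded by 59 genes, and the replicate 2 share was 56.1%, with an interval of 46.9% to 65.0%. Over the gene, chr2:73262596-73282385, replicate 2 had 21 sites of its own in 19.8 kb, beside 10 shared sites and 2 of replicate 1 alone, and hotspots covered 74.1% in replicate 2 and 21.4% in replicate 1. An intronic site of that stretch, chr2:73278596-73278745, was strong in both, with scores of 115 in replicate 2 and 113 in replicate 1. The printed site of replicate 2 alone lies about the same distance into the gene, at 6.01 kb from the start against 6.75 kb for the shared one, and scored 40. Among peaks at or above the median score, the excess at Sp9 was 0.18, below 1.5-fold. As many sites of replicate 2 alone in any 20 kb as at Sp9, Emx2 and Otx1 were found at 13, 31 and 43 of the 19350 genes, these included.

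**Figure D4:**
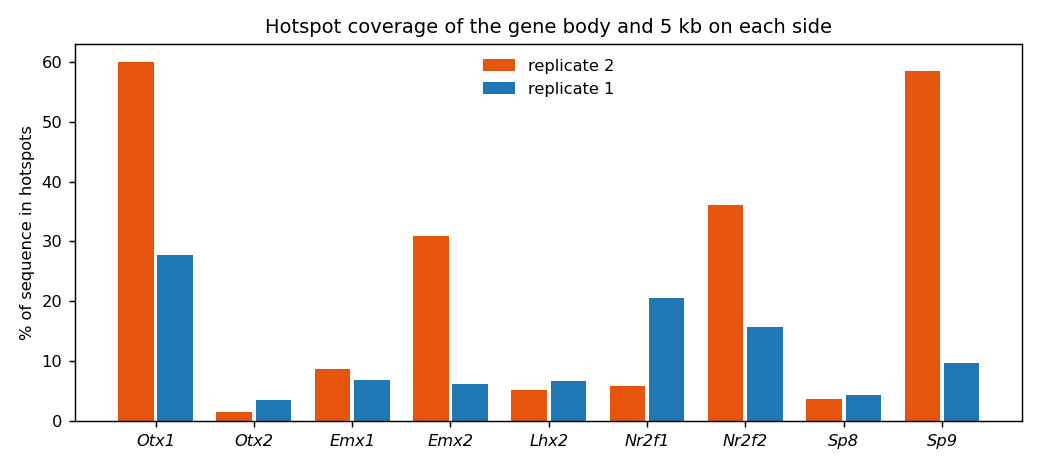
Percent of each gene body with 5 kb on each side that hotspots cover, replicate 2 left and replicate 1 right. At Sp9 58.5% was covered in replicate 2 and 9.73% in replicate 1, at Emx2 30.9% in replicate 2 and 6.22% in replicate 1, and at Nr2f1 5.91% in replicate 2 and 20.5% in replicate 1.

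The placement of the sites was uneven. It comes from the same contrast between replicates with which the genes were chosen, so it is a description and supports nothing. Of the sites of replicate 2 alone, 103 of 129 (79.8%) lay in the gene body or within 50 kb, against 98 of 267 shared sites (36.7%) and 43 of 169 sites of replicate 1 alone (25.4%). Around 12041 protein-coding genes no longer than the longest of the 9, the 3 classes were placed alike, at 26.9%, 26.1% and 25.4%. At the 4 genes past 1.5-fold, 92 of 110 sites of replicate 2 alone were that near. Inside the 9 gene bodies 40 of 63 distal sites were of replicate 2 alone, 20 were shared and 3 were of replicate 1 alone. With windows of 50 kb the excess was 1.43 at Otx1, 1.59 at Emx2, 1.97 at Nr2f2 and 1.76 at Sp9, and 4 of the 8 genes with at least 20 peaks there were past 1.5-fold, where 8.86% of 12858 genes were; nothing is read from that count either.

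**Figure D5:**
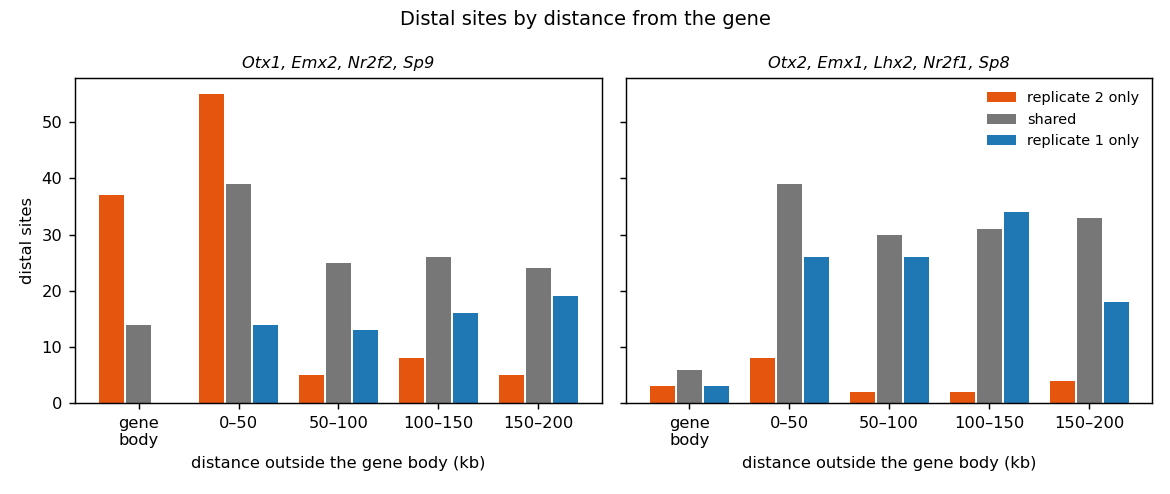
Number of distal sites of the 9 genes by distance (kb) from the gene body, for sites of replicate 2 alone, shared sites and sites of replicate 1 alone. Over both panels together, sites of replicate 2 alone number 40 inside the gene bodies and 63 in the first 50 kb, then 7 to 10 per 50 kb. Shared sites stay present at every distance. Sites of replicate 1 alone inside the gene bodies number 3, all at Lhx2.

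The same contrast was looked at in hotspots and ranks, again as a description. Inside a hotspot of replicate 1 lay 5.43% of the sites of replicate 2 alone at the 9 genes, against 21.6% of such sites across the genome. Inside a hotspot of replicate 2 lay 4.73% of the sites of replicate 1 alone at the 9 genes, against 2.85% across the genome. Peaks of replicate 2 alone stood at a median percentile of 29.4 in their own list, against 15.9 for all distal peaks of replicate 2 alone. For peaks of replicate 1 alone the corresponding percentiles were 27.9 at the 9 genes and 25.7 over the genome. Over the 9 windows 66.4% of distal peaks of replicate 2 were shared, against 83.7% of those elsewhere, and 60.9% of those of replicate 1 were shared, against 55.9% elsewhere.

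Of the 565 distal sites in the 9 windows, 129 were of replicate 2 alone (22.8%), 267 were shared (47.3%) and 169 were of replicate 1 alone (29.9%). Over all 276444 distal sites the corresponding shares were 9.61%, 50.7% and 39.6%. The windows held 15.2 sites per 100 kb, against 10.1 over the genome. Introns held 59.1% of the sites in the windows, against 50.5% of all distal sites, and exons held 7.08%, against 4.19%. The windows are centred on genes, while the genome values take in sequence far from genes. These values therefore do not show that the windows differ from those of other genes.

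CpG dinucleotides were more frequent in sites of replicate 2 alone at the 9 genes than in such sites elsewhere. In the central 150 bp these had a mean of 4.43 at the 9 genes, against 2.23 over the genome. Shared sites had 3.42 against 2.58 and sites of replicate 1 alone had 2.15 against 2.04. In RefSeq promoter windows, which matched 8 of the 9 genes with 15 entries, the median was 16 CpG against 7 for all promoters. The part of CpG content in the contrast between replicates was not tested.

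Motif matches were counted on both strands of the same central 150 bp. TAATTA, the core bound by many homeodomains, was in 6.02% of the 565 sites, against 4.55% of all distal sites. GGGCGG, the GC box, was in 7.43% against 4.88%. TAATCC, the Otx core, was in 5.84% against 6.06%, and AGGTCA, the nuclear receptor half-site, was in 6.19% against 7.18%. ACAAAG, a Sox core, was in 14.7% against 13.5%, and TGANTCA, the AP-1 site, was in 5.31% against 6.88%. CAGCTG, an E-box of bHLH factors, was in 15.04% against 18.4%, and in sites of replicate 2 alone it was in 8.53% against 11.9%. Over the 565 sites each share lay within 4 percentage points of that of all distal sites, but single classes could differ by more. ACAAAG was in 21.3% of sites of replicate 1 alone, against 14.2% of such sites over the genome. In shared sites it was in 11.6% against 13.2%, and in those of replicate 2 alone in 12.4% against 13.0%. TAATTA was in 5 of the 129 sites of replicate 2 alone (3.88%), against 4.71% over the genome. TAATTA and TAATCC begin with the same letters, TAAT, and each motif was counted on its own. A match is a description of the letters in a window and does not show binding.

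Neighbouring genes share these windows, and a peak's distance does not show which gene it acts on. The windows held 20 other protein-coding genes, of which 17 had a shared promoter peak. The bodies of these neighbours held 16 distal sites of replicate 2 alone, 93 shared sites and 59 of replicate 1 alone. Of those 16, 9 lay in Ehbp1, next to Otx1. Over all distal sites, 9.61% were of replicate 2 alone, 50.7% were shared and 39.6% were of replicate 1 alone. The 40 sites of replicate 2 alone inside the 9 genes come from the contrast with which the genes were chosen. Nothing is therefore read from the 16 beside the 40.

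The 9 genes were also set beside lists of tissue markers, which were drawn up with results of these data known. Of 36 forebrain and neural progenitor factors, 4 were past 1.5-fold towards replicate 2 and 5 towards replicate 1, against 3.29% and 1.69% of all genes tested, with a median excess of 0.07. Both counts are higher than those shares give, but neighbouring Zic genes share windows. Zic2 and Zic5, zinc finger factors of the neural plate whose genes lie side by side, had 74 distal peaks in replicate 2 and 39 in replicate 1, an excess of 1.48. Zic1, of the same family, had 8 in replicate 2 and 23 in replicate 1, an excess of -0.90. The other genes past the threshold towards replicate 2 were Eomes, a cortical progenitor T-box factor, with 0.70 and Sox2, a progenitor factor, with 0.63. Forebrain genes thus did not move together in the direction of Otx1 and Emx2.

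The same shares of all genes stand beside the other lists. Of 18 olfactory and nasal placode genes, 1 was past 1.5-fold towards replicate 2, again Sox2, and none towards replicate 1, with a median of 0.34, the highest of the lists. Of 12 jaw factors, Pitx1, a homeodomain factor of the oral and jaw region, was past it towards replicate 2 with 0.90, and Gsc, a homeodomain factor of the first arch, towards replicate 1 with -0.75. Their median was -0.30. None of 26 facial mesenchyme factors and none of 15 epithelial genes passed it either way, with medians of 0.06 and 0.03. Msx1 and Msx2, paralogous homeodomain factors of facial mesenchyme, were at the ends of the first of these lists with 0.48 and -0.47. Some genes stand on more than 1 list. The part of depth or of tissue margins in these values was not tested.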

How the data were processed

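DNase-seq peak and hotspot lists were deposited for each of 2 biological replicates, aligned to mm10 and derived separately, per the labels and file headers. No aligner, caller or version is given in the sources used here. The peak score, as deposited, is a whole number whose normalization is not stated, and it was used to rank peaks within a list. Hotspots carry a deposited −log10 q-value that stops at 100. Repeated rows and peaks off the main chromosomes were removed (218221 peaks became 217980 in replicate 2, and 304489 became 304233 in replicate 1). Start sites came from GENCODE M21 basic transcripts. Overlaps were counted in Python 3.11.15 with pandas 2.3.3, numpy 2.4.6 and scipy 1.17.1, and the scripts were checked on simulated data. The windows, thresholds and pseudocount are given with the results. No read counts were used here, so no count model applied. The genes and lists were chosen with earlier results of these data known. Named genes were the 9 genes and, per list, the 3 with the highest and the 3 with the lowest excess, of which a part is not reported here. Alternatives covered window size, score, list length, hotspots, distance, overlap and promoter width.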

Additional observations from a re-analysis of the deposited data

How the results depend on the processing

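No paired analysis was possible because there was 1 group and no test. Over the 9 genes, 66.4% of replicate 2 and 60.9% of replicate 1 distal peaks were shared. Among peaks at or above the median score these shares were 78.3% and 54.6%, with equal list lengths 60.6% and 74.0%, with an overlap of at least 50% of both peaks 59.9% and 55.5%, and within 50 kb 46.9% and 68.5%. The replicate 2 share was 56.8% within 100 kb and 71.9% for hotspots. The median excess was 0.29 within 100 kb and also for sequence nearest to a start site of the gene, 0.56 within 50 kb, and 0.34 over 5 kb from start sites. Past 1.5-fold towards replicate 2 there was 1 gene, Emx2, among peaks at or above the median score, in place of 4. Towards replicate 1 there was 1 within 100 kb, Otx2, and 1 among the higher scores, Nr2f1 at -0.77. Emx2 also fell below 1.5-fold with hotspots (0.58) and, in an alternative chosen after seeing the data that used the start sites of every annotated transcript (0.48). Shared promoters were 9 within 1000 bp and 6 within 250 bp. With 1 replicate left out, nothing can be shared, and the genes with a promoter peak in the remaining list numbered 7 to 9. The cause was not tested. The depth of each library is unknown and limits every statement about a site found in 1 list.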

Other observations

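Genes were searched for the mix of site classes nearest to that of each of the 9 genes, over 17701 protein-coding genes with at least 40 distal peaks outside the 9 windows. Likeness was the Euclidean distance between the shares of shared sites, sites of replicate 1 alone and sites of replicate 2 alone, so it rests on 3 numbers from 2 libraries. Nearest to Otx1 was Tbx20, a T-box factor of the heart, at a distance of 0.0789, with 36.7% of its sites in replicate 2 alone against 43.1% at Otx1. Nearest to Emx2 was Hand2, a bHLH factor of the lower jaw and heart, at 0.0171. Nearest to Sp9 was Scn4a, a muscle sodium channel gene, at 0.00705, nearest to Nr2f2 was Vmn1r220, a vomeronasal receptor gene, at 0.0239, and nearest to Nr2f1 was Pgam5 at 0.00465. Otx2, Emx1, Lhx2 and Sp8 each had genes with the very same shares.

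Across all protein-coding genes, skipping a gene whose window overlaps one already taken, 2 genes stood above Otx1 in excess. They were Gm5089, with 77 distal peaks in replicate 2 and 40 in replicate 1, and Gm20767, with 17 in replicate 2 and 10 in replicate 1. Zic2 and Zic5, with an excess of 1.48, were also above Otx1 but were skipped, as their windows overlap that of Gm5089. The values of Gm5089, Zic2 and Zic5 are therefore not separate observations. Among the lowest were Zfp978 with -2.75 and Vmn1r2 with -2.18.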
